A study of Mus musculus with 8 samples.

Results

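The chromatin remodelers here are mouse genes whose symbols begin with Chd or Arid and a digit, or Smarc and a letter a to e. Each had 20 or more unique molecular identifiers (UMIs), summed over all annotated cells of 8 single-cell RNA sequencing libraries. A UMI stands for 1 captured RNA molecule. The rule uses the symbol and the UMI total, and 34 of the 31053 genes in the matrices met the rule: 11 Chd symbols, 13 Smarc symbols and 10 Arid symbols. The libraries came from male C57BL/6N mice, labelled 8 to 10 weeks old, that were wild type (WT) or heterozygous for a CRISPR-Cas9 mutation at exon 15 of *Setd1a* (*Setd1a*+/-), a gene that encodes a histone methyltransferase and is a schizophrenia risk gene. For each genotype there were 2 libraries of the prefrontal cortex (PFC) and 2 of the striatum (the labels write NAc), each library holding the pooled tissue of 2 mice, and no other allele or agent was named. Levels are in CPM, the counts-per-million scale, relative to all UMIs of the same cells. Changes are log2 fold changes (log2 FC) with a standard error (SE). For edgeR the SE was derived as the size of the change divided by the square root of its test statistic F. The values of the 4 libraries of a tissue are always given in the order WT 1, WT 2, *Setd1a*+/- 1 and *Setd1a*+/- 2.

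The libraries held 15154268 to 26277553 UMIs each, and the authors' annotation kept 1508 to 4361 cells a library (8997 in the PFC and 14690 in the striatum) with a median of 2302.5 to 3042 UMIs a cell in a library. Pairs of libraries shared 1 to 24 cell barcodes. The annotated types were checked against markers: 24 of 24 markers were highest in the named PFC type, 29 of 31 in the named striatal type (*Gad2* and *Slc32a1* were higher in D1 neurons than in interneurons), and 5 of 7 in the named excitatory subtype. The exceptions there were *Etv1*, with a mean of 233 CPM in DL-Etv1 and 1031.5 CPM in DL-Tshz2 neurons, and *Cux2*, with 113 CPM in SL-Cux2 and 146 CPM in SL-Myh7 neurons. *Setd1a* itself was 8.45, 11.2, 5.59 and 9.33 CPM in the PFC libraries and 13.4, 15.2, 9.16 and 12.5 CPM in the striatal libraries over all cells. Within each replicate number the *Setd1a*+/- library lay below the WT library in both tissues, while across replicates *Setd1a*+/- 2 of the PFC lay between the WT libraries. The difference was not called in the PFC (log2 FC -0.39 ± 0.43 (SE), edgeR FDR = 1) or in the striatum (log2 FC -0.38 ± 0.28 (SE), edgeR FDR = 1.00). With the replicate number as a block it was -0.42 ± 0.32 (SE) in the PFC and -0.39 ± 0.27 (SE) in the striatum on the log2 scale, and was not called either (edgeR FDR = 1.00 and 1).

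Chromatin remodelers are ATPases that use the energy of ATP to slide, evict or exchange nucleosomes, and most of them work inside large complexes. SWI/SNF complexes (also called BAF) are built around *Smarca4* or *Smarca2* as the ATPase, with Smarcc, Smarcd, *Smarcb1* and *Smarce1* subunits and with *Arid1a*, *Arid1b* or *Arid2* as DNA-binding subunits, and they are known for exchanging subunits as neural progenitors become neurons. The ISWI ATPases are *Smarca5* and *Smarca1*, the NuRD complex joins *Chd3*, *Chd4* or *Chd5* to histone deacetylases, and mutations of several of these genes, among them *Arid1b*, *Chd2*, *Chd7* and *Chd8*, cause neurodevelopmental disorders.

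The symbols also take in genes that are not remodelers themselves, such as the DNA-binding proteins *Arid3a*, *Arid3b* and *Arid5a*. *Chd3os* (ENSMUSG00000043419) carries the name *Rnf227*, a RING finger protein gene, in the GENCODE vM21 annotation, where it lies at chr11:69340461-69342641 (mm10, plus strand), 631 bases beyond the 3′ end of *Chd3* (chr11:69343273-69369406, minus strand). It had 30601 UMIs, the most of the 34 symbols, and the total of calls in each comparison is given with and without it. The other 33 symbols kept their names in that annotation. Coding genes on the opposite strand overlap 5 members (*Il11ra1* for *Arid3c*, *Ggps1* for *Arid4b*, *Dhx30* for *Smarcc1*, *Gm17349* for *Smarcd1* and *Chpf2* for *Smarcd3*), and whether the counting used strand is not given in the sources used here, so reads of those pairs may not be told apart.

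Most members with a promoter window had one rich in CpG, but not all did: the windows of *Smarca1* and *Arid5b* held 9 and 7 CpG. RefSeq windows of 250 bases before to 50 after the start (GRCm38.p6) covered 25 of the 34 members, with 31 windows, and these held a median of 25 CpG against 7 over all 32851 promoter windows, with a median GC content of 65.67% against 52.67%. A GC box (GGGCGG, either strand) was found in 77.42% of members' windows and in 35.66% of all, a CCAAT box (CCAAT) in 32.26% and 37.41%, a TATA box (TATAAA) in 6.45% and 13.62%, an E-box (CANNTG) in 64.52% and 72.31%, and a cAMP response element (TGACGTCA) in 0% and 1.79%. No motif overlap was resolved and a match is only a run of letters. Printed here are 3 windows, because *Smarca1* and *Chd5* were both high in neurons, and *Arid5b* was high in endothelial cells and mature oligodendrocytes. Capitals mark the GC, CCAAT and TATA boxes on either strand, and each window is written 5′ to 3′ along the gene.
*Smarca1*, chrX:47892564-47892863, minus strand: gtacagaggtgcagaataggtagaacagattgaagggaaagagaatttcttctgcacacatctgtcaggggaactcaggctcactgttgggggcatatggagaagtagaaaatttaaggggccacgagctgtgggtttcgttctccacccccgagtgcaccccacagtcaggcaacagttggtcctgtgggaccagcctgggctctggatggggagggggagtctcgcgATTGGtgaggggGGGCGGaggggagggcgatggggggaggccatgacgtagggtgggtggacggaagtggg
*Chd5*, chr4:152338401-152338700, plus strand: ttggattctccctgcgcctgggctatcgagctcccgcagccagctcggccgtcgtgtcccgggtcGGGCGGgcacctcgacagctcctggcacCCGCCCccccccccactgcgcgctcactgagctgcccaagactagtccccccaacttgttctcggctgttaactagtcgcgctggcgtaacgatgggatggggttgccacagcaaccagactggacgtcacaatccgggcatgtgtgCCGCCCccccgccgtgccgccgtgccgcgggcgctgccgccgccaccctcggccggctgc
*Arid5b*, chr10:68278677-68278976, minus strand: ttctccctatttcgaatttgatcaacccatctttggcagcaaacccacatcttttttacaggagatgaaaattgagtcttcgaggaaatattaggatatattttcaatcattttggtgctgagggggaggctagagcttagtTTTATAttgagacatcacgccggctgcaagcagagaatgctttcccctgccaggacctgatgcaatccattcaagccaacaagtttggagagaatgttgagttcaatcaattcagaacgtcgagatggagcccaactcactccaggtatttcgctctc
The *Chd5* window held 32 CpG and 3 GC boxes, and the *Smarca1* window 9 CpG, 1 GC box and 1 CCAAT box. The *Arid5b* window held 7 CpG at a GC content of 43.33%, no GC box and 1 TATA box.

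The PFC annotation holds 8 cell types, and each type was compared with the unweighted mean of the others in 1 model with the library as a block, which asks where each remodeler was expressed most. Higher and lower are relative to that mean, not to each single type. Of the 28 members with enough UMIs to be tested, 26 were called in at least 1 type (false discovery rate, FDR, under 0.05 and a change above 1.5-fold), with 91 calls in 224 tests, 50 higher and 41 lower, or 85 without *Chd3os*. That rate of calls per test is close to the behaviour of genes in general, since 30.5% to 56.4% of all genes tested were called in a given type. The share of all genes called in at least 1 PFC type was not counted. *Smarcc2*, a scaffold subunit of SWI/SNF, and *Chd8* were called in no PFC type. The types are the authors' clusters of the same cells, so these tests describe expression in the clusters and do not test the clusters.

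**Figure D1:**
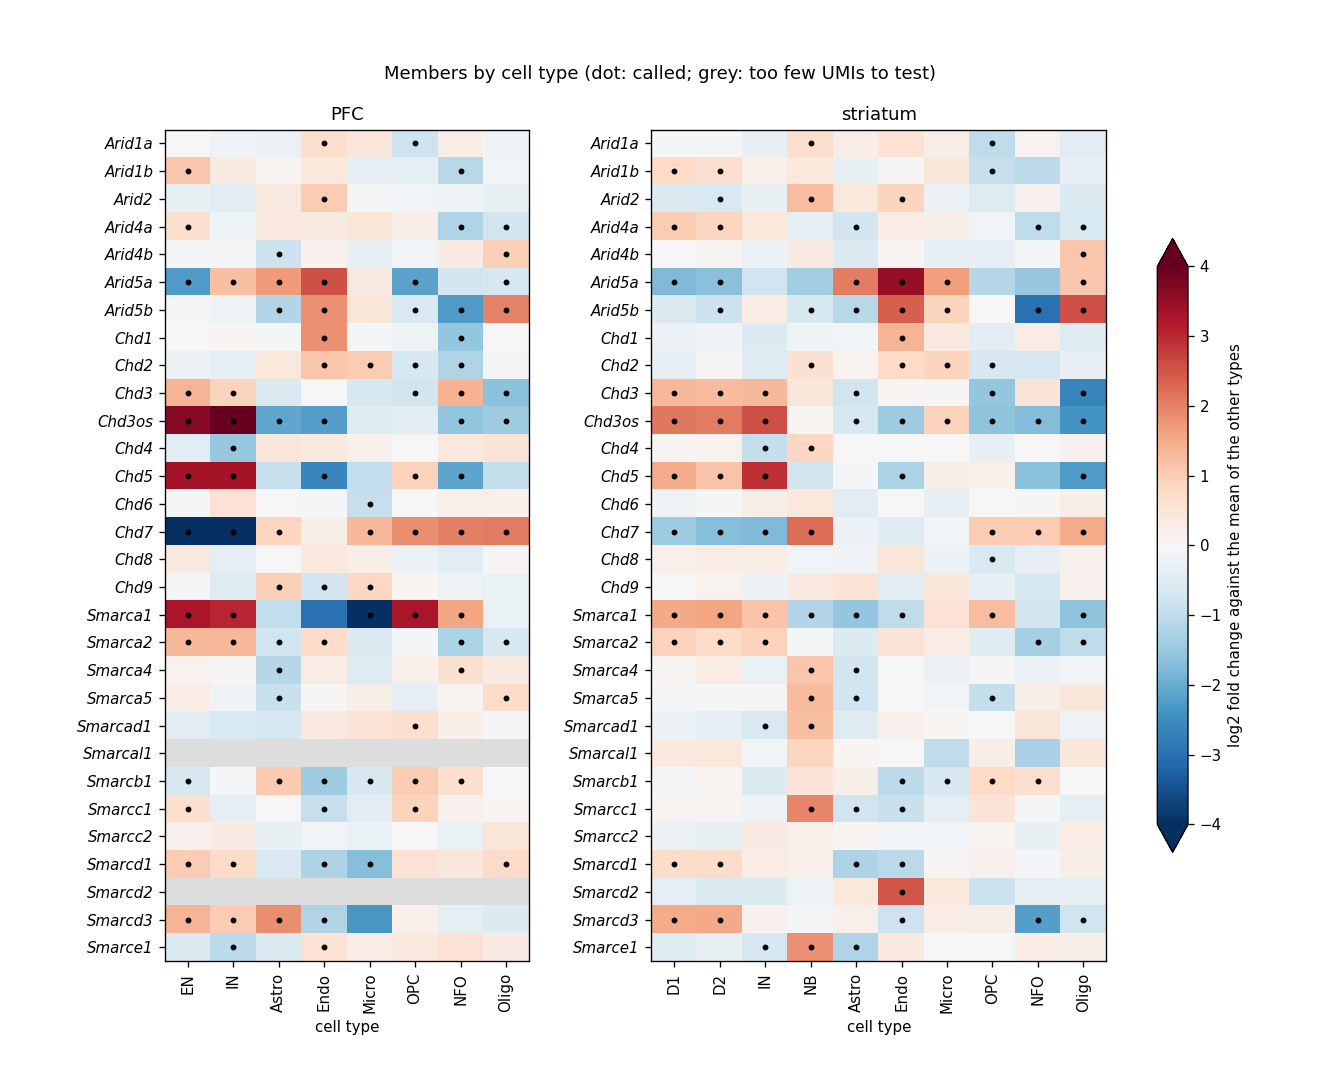
The heat map shows the log2 fold change of each tested member (rows) in each cell type against the mean of the other types (columns), for the PFC on the left and the striatum on the right, with red for higher, blue for lower, a dot for a call and grey for members with too few UMIs to test. *Chd5*, *Chd3os* and *Smarca1* are red in neurons of both tissues, *Chd7* is blue in mature neurons of both tissues and red in oligodendrocyte lineage cells and in striatal neuroblasts (NB), and *Arid5a* and *Arid5b* are red in endothelial cells.

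PFC excitatory neurons (EN) had 10 members higher and 3 lower of 28, where 56.4% (34.3% higher, 22.1% lower) of all genes were called, and the members' median log2 fold change was 0.06 against 0.11 over all genes. *Smarca1* (chrX:47809368-47892974, mm10, minus strand), the ISWI ATPase also known as SNF2L, was 56.2, 53.6, 60.9 and 51.1 CPM in excitatory neurons, and was higher there than the mean of the other types (log2 FC 3.26 ± 0.20 (SE), edgeR FDR = 4.81e-19). It was also high in interneurons, at 62.9, 53.8, 44.4 and 59.6 CPM (log2 FC 3.04 ± 0.31 (SE), edgeR FDR = 1.02e-11). Endothelial cells held 1.5, 1.33, 0.751 and 0 CPM of *Smarca1*, so the neuronal and endothelial libraries were far apart.

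*Chd5* (chr4:152338651-152390194, plus strand), a NuRD ATPase known for its expression in brain, was 89.3, 105, 53.9 and 108 CPM in PFC excitatory neurons (log2 FC 3.32 ± 0.15 (SE), edgeR FDR = 4.75e-25) and 106, 119.5, 46.6 and 136 CPM in interneurons (log2 FC 3.32 ± 0.23 (SE), edgeR FDR = 2.26e-17). In endothelial cells it was 1, 6.63, 0.751 and 2.41 CPM (log2 FC -2.61 ± 0.49 (SE), edgeR FDR = 7.64e-06). The lowest neuronal library, *Setd1a*+/- 1, still lay above the highest endothelial library. Summed levels of the 3 excitatory neuron markers were 758 to 994 CPM in these cells. In no other PFC type did that sum exceed 62.6 CPM.

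*Chd7* (chr4:8690406-8867659, plus strand), which is mutated in CHARGE syndrome, showed the opposite pattern. In PFC excitatory neurons it was 1.06, 1.95, 1.92 and 1.99 CPM (log2 FC -4.14 ± 0.44 (SE), edgeR FDR = 9.13e-12), and in interneurons 2.86, 3.98, 0 and 0 CPM. Interneurons held 3 UMIs of *Chd7* in all, so the mean of the other types, low in excitatory neurons as well, was 25.75 times the interneuron level, with a counting interval (exact Poisson, 95%) of 8.81 to 124.9. Both *Setd1a*+/- libraries had no *Chd7* UMI in interneurons.

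*Chd3os* was the member with the highest excess by fold in both PFC neuron types. It was 614, 611, 777 and 607 CPM in excitatory neurons (log2 FC 3.67 ± 0.13 (SE), edgeR FDR = 1.25e-29) and 1343, 1139, 1440.1 and 1079 CPM in interneurons (log2 FC 4.56 ± 0.13 (SE), edgeR FDR = 3.61e-32). Interneurons had 8 members higher and 3 lower, against 48.1% (26.3% higher, 21.8% lower) of all genes called, with a median of -0.08 against -0.04 over all genes. *Smarca2*, the SWI/SNF ATPase known as BRM, was also higher in both neuron types (log2 FC 1.29 ± 0.10 (SE), edgeR FDR = 1.35e-16 in excitatory neurons), as were *Smarcd1*, *Smarcd3* and *Chd3*. *Chd4*, the NuRD ATPase that is broadly expressed, was lower in interneurons (log2 FC -1.51 ± 0.17 (SE), edgeR FDR = 2.48e-10).

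**Figure D2:**
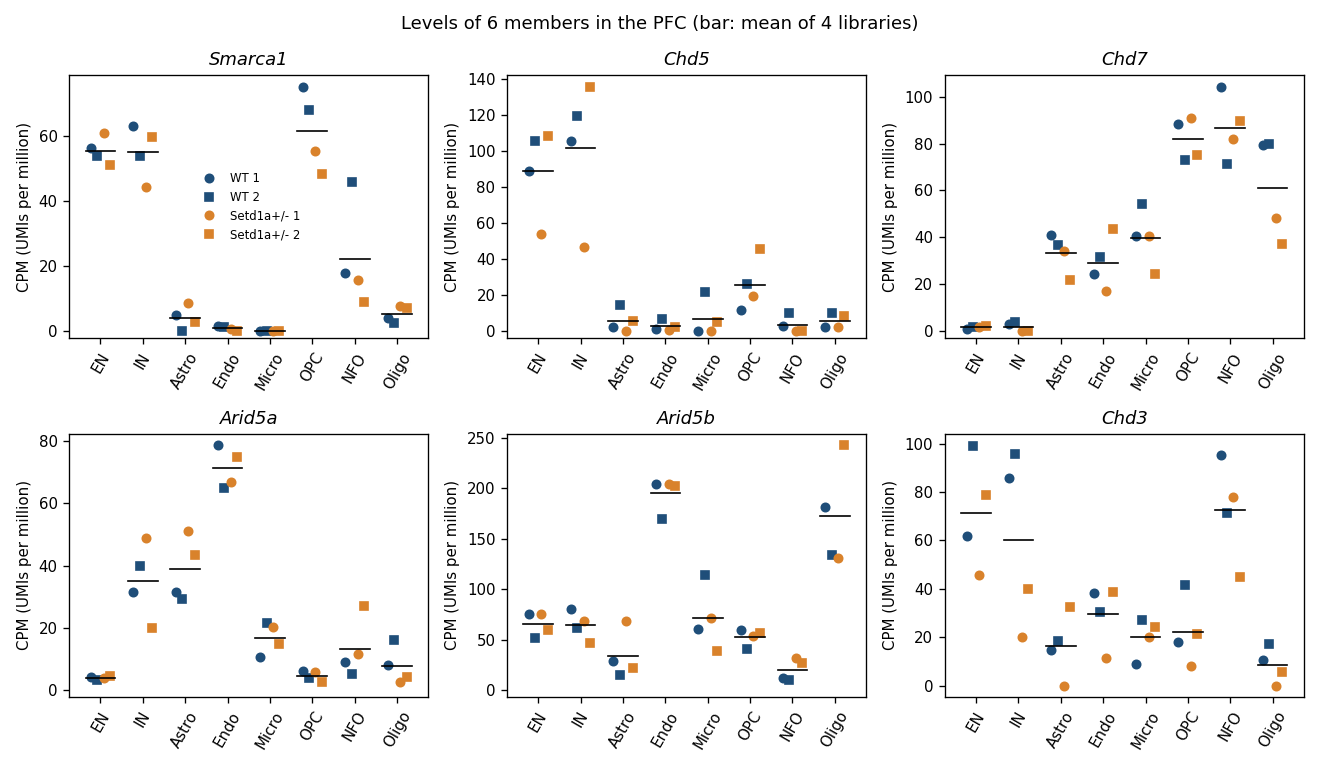
The panels show the CPM of 6 members in the 8 PFC cell types, with 1 point per library (circles for replicate 1, squares for replicate 2, blue for WT, orange for *Setd1a*+/-) and a bar at the mean of the 4 libraries. *Smarca1* and *Chd5* are high in EN and IN, *Chd7* lies between 37.1 and 104 CPM in OPC, newly formed oligodendrocytes (NFO) and oligodendrocytes and at or under 3.98 CPM in both neuron types, *Arid5a* peaks in endothelial cells and *Arid5b* in endothelial cells and oligodendrocytes.

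Endothelial cells of the PFC had 8 members higher and 7 lower of 28, against 55.4% (29.5% higher, 26% lower) of all genes called, with a median of 0.26 against -0.05 over all genes. *Arid5a* (chr1:36307733-36324029, plus strand), an AT-rich DNA-binding protein that is also known to bind and stabilise inflammatory messenger RNAs, was 78.6, 64.9, 66.9 and 74.8 CPM in endothelial cells (log2 FC 2.56 ± 0.16 (SE), edgeR FDR = 5.04e-19) and 4.24, 3.34, 3.85 and 4.54 CPM in excitatory neurons. *Arid5b* (chr10:68092520-68278740, minus strand), which partners the histone demethylase *Phf2*, was 205, 169.6, 204 and 203 CPM in endothelial cells (log2 FC 1.83 ± 0.12 (SE), edgeR FDR = 2.95e-19). All 4 endothelial libraries of each gene lay above all 4 libraries of excitatory neurons. *Chd3os* was 12.5, 22.5, 15.8 and 31.4 CPM in endothelial cells (log2 FC -2.22 ± 0.25 (SE), edgeR FDR = 6.14e-11). The group called endothelial also held mural cell markers, whose summed level (*Rgs5*, *Vtn* and *Acta2*) was 4220.0 to 4778 CPM there in the PFC and 3797 to 4305 CPM in the striatum. Their part in these values was not tested.

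In PFC astrocytes 5 members were higher and 6 lower, against 36.2% (20.7% higher, 15.6% lower) of all genes, with a median of -0.17 against -0.09 over all genes. *Smarcd3*, a SWI/SNF subunit known as BAF60C, was 4.83, 44, 0 and 19 CPM (log2 FC 1.87 ± 0.42 (SE), edgeR FDR = 0.000252). In 3 of the 4 libraries it lay below the level of their own empty droplets (7.5, 33.9, 2.46 and 37.2 CPM, counted in barcodes with 50 UMIs or fewer). *Arid5a* was 31.4, 29.3, 51.3 and 43.4 CPM (log2 FC 1.69 ± 0.30 (SE), edgeR FDR = 5.54e-06). *Arid5b* was 29, 14.7, 68.4 and 21.7 CPM (log2 FC -1.18 ± 0.29 (SE), edgeR FDR = 0.000773), and *Chd3os* 4.83, 36.7, 8.54 and 16.3 CPM (log2 FC -2.09 ± 0.37 (SE), edgeR FDR = 6.23e-06).

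PFC microglia had 3 members higher and 4 lower, against 37% (21.7% higher, 15.3% lower) of all genes, with a median of -0.15 against -0.07 over all genes. *Smarca1* had 0 UMIs in microglia of all 4 libraries, out of 1052685 UMIs, so it was at least 10.29-fold lower than the mean of the other types (taking 3 UMIs over the group as the limit that a count of 0 allows, for counting error only). No such limit holds against endothelial cells, whose own level was below it. *Smarcd1*, known as BAF60A, was 3.55, 10.8, 10.1 and 14.6 CPM (log2 FC -1.70 ± 0.45 (SE), edgeR FDR = 0.0018), and without PFC WT 1 the call was lost (log2 FC -1.15, edgeR FDR = 0.144). *Chd7* was 40.8, 54.1, 40.5 and 24.4 CPM (log2 FC 1.33 ± 0.31 (SE), edgeR FDR = 0.000409), and *Chd2*, a remodeler linked to childhood epilepsy, 72.7, 81.1, 50.6 and 63.4 CPM (log2 FC 1.03 ± 0.21 (SE), edgeR FDR = 0.0001). Both were higher than the mean of the other types, but *Chd7* lay below its level in OPC and NFO. Vascular markers were found in PFC microglia. The mural markers summed to 156 to 709 CPM there, and *Cldn5*, *Flt1* and *Ly6c1* had means of 195, 168 and 295 CPM. In PFC endothelial cells those 3 means were 1741, 2055 and 3407 CPM. The part of these markers' source cells in the microglial values was not tested.

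Cells of the oligodendrocyte lineage carried the most *Chd7* in the PFC. Progenitors (OPC) had 6 members higher and 5 lower, against 34.4% (21.5% higher, 12.9% lower) of all genes. Newly formed oligodendrocytes had 5 and 8, against 30.5% (15.1% higher, 15.4% lower), and mature oligodendrocytes 5 and 5, against 42.8% (21.5% higher, 21.4% lower). The members' medians of 0.01, -0.04 and -0.04 stood beside 0.04, -0.15 and -0.08 over all genes. *Chd7* was 88.4, 73, 90.8 and 75 CPM in progenitors (log2 FC 1.85 ± 0.19 (SE), edgeR FDR = 1.01e-11) and 104, 71.4, 81.9 and 89.6 CPM in newly formed oligodendrocytes (log2 FC 2.00 ± 0.25 (SE), edgeR FDR = 4.16e-09). In oligodendrocytes it was 79.4, 80.0, 48.4 and 37.1 CPM (log2 FC 2.07 ± 0.17 (SE), edgeR FDR = 1.28e-14). The 3 stages overlapped between libraries.

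*Smarca1* was also high in PFC progenitors, at 75, 67.8, 55.3 and 48.2 CPM (log2 FC 3.25 ± 0.26 (SE), edgeR FDR = 2.37e-14). *Smarcb1*, the core SWI/SNF subunit known as SNF5, was 259, 259, 209 and 230.3 CPM there (log2 FC 1.03 ± 0.08 (SE), edgeR FDR = 7.56e-15). *Arid5a* was 6, 3.91, 5.92 and 2.68 CPM in progenitors, lower than the mean of the other types but overlapping with excitatory neurons (log2 FC -2.15 ± 0.38 (SE), edgeR FDR = 5.02e-06). In newly formed oligodendrocytes *Chd3os* was 35.7, 45.9, 11.7 and 26.9 CPM (log2 FC -1.58 ± 0.34 (SE), edgeR FDR = 0.000191), and *Chd5* had 3 UMIs, so that the mean of the other types was 9.89 times higher with a counting interval of 3.38 to 47.95. That call on *Chd5* was lost without PFC WT 2, *Setd1a*+/- 1 or *Setd1a*+/- 2, with scaling by library size alone and with no library block (log2 FC -1.80 to -2.62, edgeR FDR 0.0647 to 0.0926).

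*Arid5b* and *Chd3* changed in opposite directions along the lineage. In the PFC, *Arid5b* was 60.0, 40.4, 53.3 and 56.2 CPM in progenitors, 11.9, 10.2, 31.2 and 26.9 CPM in newly formed oligodendrocytes and 182, 134, 131 and 243 CPM in oligodendrocytes. It fell at the first step (log2 FC -1.44 ± 0.41 (SE), edgeR FDR = 0.00548) and rose at the second in every library (log2 FC 3.72 ± 0.29 (SE), edgeR FDR = 4.63e-15). Against the mean of the other types *Arid5b* was lower in newly formed oligodendrocytes (log2 FC -2.26 ± 0.33 (SE), edgeR FDR = 2.51e-07) and higher in oligodendrocytes (log2 FC 1.99 ± 0.12 (SE), edgeR FDR = 8.28e-20). *Chd3* was 18, 41.7, 7.9 and 21.4, then 95.2, 71.4, 78 and 44.8, then 10.4, 17.2, 0 and 5.71 CPM at the same stages. It rose to newly formed oligodendrocytes (log2 FC 1.84 ± 0.37 (SE), edgeR FDR = 0.000109) and fell after them (log2 FC -2.65 ± 0.40 (SE), edgeR FDR = 4.48e-07), so that oligodendrocytes lay below the mean of the other types (log2 FC -1.65 ± 0.31 (SE), edgeR FDR = 1.52e-05). *Chd3os* was 16.2, 46.8, 16.6 and 15.7 CPM in oligodendrocytes (log2 FC -1.42 ± 0.24 (SE), edgeR FDR = 1.69e-06).

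The striatal libraries gave the same lineage order. *Arid5b* was 58.3, 40.9, 60.4 and 37 CPM in striatal progenitors, 0, 21.2, 10.9 and 0 CPM in newly formed oligodendrocytes, which fell (log2 FC -2.71 ± 0.56 (SE), edgeR FDR = 0.000235), and 167, 146, 199 and 62.9 CPM in oligodendrocytes, which rose (log2 FC 5.02 ± 0.39 (SE), edgeR FDR = 1.7e-16). Striatal newly formed oligodendrocytes held 4 UMIs of *Arid5b* in all, so by pooled counts their level was 6.54 times lower than in progenitors, with a counting interval of 2.55 to 24, and 21.5 times lower than in oligodendrocytes, with an interval of 8.4 to 78.9. *Chd3* was 20.3, 10.2, 23.1 and 12.3, then 73.9, 84.7, 38.2 and 91.8, then 10.1, 4.23, 3 and 0 CPM, and both steps were called (log2 FC 1.85 ± 0.45 (SE), edgeR FDR = 0.00179, and then log2 FC -2.84 ± 0.49 (SE), edgeR FDR = 3.89e-06). Empty droplets held 48.3, 81.7, 27.5 and 75 CPM of *Chd3* in the PFC libraries and 97.6, 80.8, 79.4 and 93.4 CPM in the striatal ones. The level in newly formed oligodendrocytes was above that of the library's own empty droplets in both PFC replicates 1 and in striatal WT 2, and below it in the other libraries. Progenitors and oligodendrocytes lay below it in every library, and the part of free RNA in these steps was not tested. Newly formed oligodendrocytes were few in the striatum, 58, 32, 53 and 22 cells.

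Over both tissues the lineage steps gave 23 calls in 116 tests of members, 10 higher and 13 lower, or 22 without *Chd3os*. From progenitors to newly formed oligodendrocytes the share of all genes called was 24.9% (9.32% higher, 15.6% lower) in the PFC and 15.2% (5.57% higher, 9.66% lower) in the striatum. From there to oligodendrocytes it was 31.5% (17.9% higher, 13.6% lower) and 24.1% (15.4% higher, 8.72% lower). With scaling by library size alone there were 32 calls, 7 higher and 25 lower, and the median of all genes shifted by -0.52 (PFC) and -0.63 (striatum) at the step to oligodendrocytes. *Smarca1* fell at both PFC steps, from progenitors at 75, 67.8, 55.3 and 48.2 CPM to 17.9, 45.9, 15.6 and 8.96 CPM (log2 FC -1.48 ± 0.33 (SE), edgeR FDR = 0.000437) and on to 4.06, 2.46, 7.65 and 7.14 CPM in oligodendrocytes (log2 FC -1.59 ± 0.48 (SE), edgeR FDR = 0.00697). The second step was not called without PFC WT 2 (log2 FC -0.89, edgeR FDR = 0.252). *Chd5* went from 12, 26.1, 19.7 and 45.5 CPM in PFC progenitors to 2.98, 10.2, 0 and 0 CPM (log2 FC -2.66 ± 0.72 (SE), edgeR FDR = 0.00371). By pooled counts this was 7.13 times lower with a counting interval of 2.44 to 34.58, and the call was lost without PFC *Setd1a*+/- 2 (log2 FC -2.12, edgeR FDR = 0.0558). Empty droplets of these libraries held 66.1, 102, 56 and 112 CPM of *Chd5*, above every library of both stages. The part of free RNA in this step was not tested.

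In the striatum, *Smarcd3* rested on 3 UMIs in newly formed oligodendrocytes, against 25.4, 32.1, 24.4 and 37 CPM in progenitors, a ratio of 4.6 with a counting interval of 1.57 to 22.31. Its call was lost without striatal WT 1, *Setd1a*+/- 1 or *Setd1a*+/- 2, with DESeq2 size factors and at 30 cells or more (log2 FC -1.67 to -2.10, edgeR FDR 0.0518 to 0.226). The DESeq2 test gave it a DESeq2 FDR of 0.0722. *Arid4b*, which binds the retinoblastoma protein, was 90.9, 52.9, 76.5 and 138 CPM in newly formed oligodendrocytes and 108, 113, 108 and 81.8 CPM in oligodendrocytes, where the CPM overlapped (log2 FC 1.05 ± 0.22 (SE), edgeR FDR = 0.000119, on the scaled counts), and was not called with library size alone (log2 FC 0.38, edgeR FDR = 0.245).

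Of the striatal members, 30 could be tested in the 10 annotated types, and 26 were called in at least 1 type. There were 102 calls in 300 tests, 53 higher and 49 lower, or 93 without *Chd3os*, where 19.7% to 50.2% of all genes were called in a given type. The share of all genes called in at least 1 striatal type was not counted. *Chd6*, *Chd9*, *Smarcc2* and *Smarcal1*, an annealing helicase of stalled replication forks, were called in no striatal type. For the 7 types present in both tissues, 196 pairs of member and type were tested in both. Of these, 78 were called in the PFC and 65 in the striatum, and 46 in both (23.47%), 45 of them in the same direction (22.96%). Over all genes 40.8% of such pairs were called in the PFC, 38% in the striatum, 27.9% in both and 27.5% in both in the same direction, so the members' shares lay near or below those of genes in general. The member called in opposite directions was *Arid5a* in oligodendrocytes, lower than the mean of the other types in the PFC (log2 FC -0.68 ± 0.29 (SE), edgeR FDR = 0.0435) and higher in the striatum (log2 FC 1.09 ± 0.29 (SE), edgeR FDR = 0.0012), where the set of other types differs.

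The striatal neural stem cells and neuroblasts (NB), which the annotation groups together, had 10 members higher and 2 lower, against 41.8% (18.9% higher, 22.9% lower) of all genes called, with a median of 0.40 against -0.25 over all genes. *Chd7* was 169.7, 117, 144 and 139 CPM there (log2 FC 2.24 ± 0.17 (SE), edgeR FDR = 1.49e-17). *Smarcc1*, the SWI/SNF scaffold known as BAF155, was 139, 253, 162 and 106 CPM (log2 FC 1.96 ± 0.16 (SE), edgeR FDR = 7.32e-16). *Smarce1*, the SWI/SNF subunit known as BAF57, was 275, 241, 269 and 245 CPM (log2 FC 1.82 ± 0.12 (SE), edgeR FDR = 1.22e-19). For *Chd7* and *Smarce1* every NB library lay above every library of the other striatal types, while for *Smarcc1* the NB libraries overlapped with those of progenitors. *Smarca5*, the ISWI ATPase known as SNF2H, was 156, 147, 157 and 155 CPM (log2 FC 1.25 ± 0.13 (SE), edgeR FDR = 1.85e-12). The NB group held 105, 63, 214 and 55 cells in the 4 libraries, and its markers *Dcx*, *Sox11*, *Dlx2* and *Top2a* were each highest in it.

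**Figure D3:**
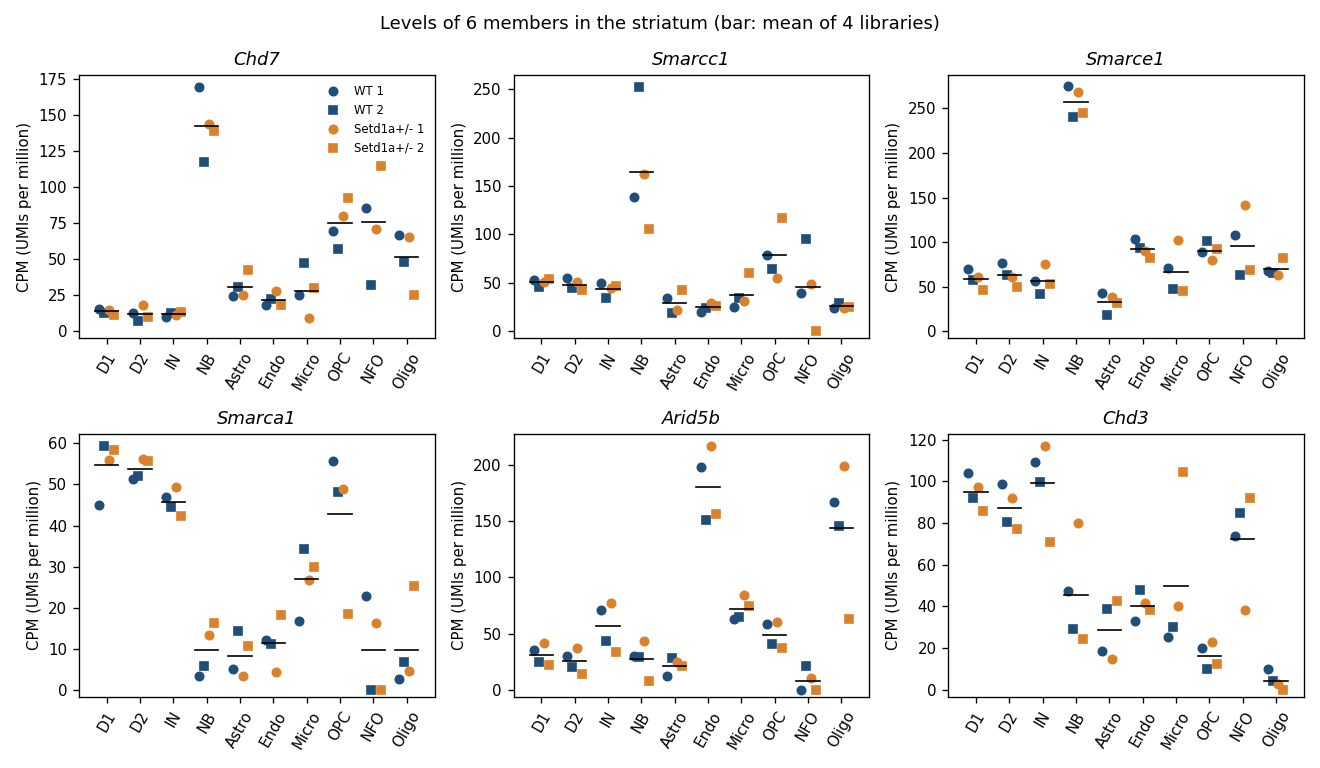
The panels show the CPM of 6 members in the 10 striatal cell types, with 1 point per library (circles for replicate 1, squares for replicate 2, blue for WT, orange for *Setd1a*+/-) and a bar at the mean of the 4 libraries. *Chd7*, *Smarcc1* and *Smarce1* are highest in NB, *Smarca1* is highest in D1 and D2 neurons, interneurons and OPC, *Arid5b* in endothelial cells and oligodendrocytes, and *Chd3* lies at 10.1 CPM or less in oligodendrocytes.

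D1 and D2 medium spiny neurons, the projection neurons of the striatum, had 9 members higher and 2 lower, and 9 higher and 4 lower, against 42.5% (24.9% higher, 17.6% lower) and 43.4% (24.4% higher, 19% lower) of all genes called. The members' medians were -0.01 and 0.11 against 0.03 and 0.01 over all genes. *Smarca1* was 45, 59.4, 56 and 58.4 CPM in D1 neurons (log2 FC 1.52 ± 0.13 (SE), edgeR FDR = 5.8e-15) and 51.3, 52, 56.2 and 55.7 CPM in D2 neurons (log2 FC 1.56 ± 0.14 (SE), edgeR FDR = 3.14e-14). *Smarcd3* was 55.9, 62.9, 53 and 60.9 CPM in D1 neurons (log2 FC 1.49 ± 0.13 (SE), edgeR FDR = 2.29e-15). The D1 and D2 libraries of both genes overlapped, and lay above all NB libraries. Empty droplets of the striatum held 107 to 127 CPM of *Smarcd3*, above its level in every library of every striatal type. *Arid5a* was 2.94, 2.28, 3 and 4.41 CPM in D1 neurons (log2 FC -1.76 ± 0.40 (SE), edgeR FDR = 0.000118) and 2.5, 1.29, 5.47 and 4.68 CPM in D2 neurons (log2 FC -1.69 ± 0.42 (SE), edgeR FDR = 0.000382). Every D1 and D2 library of *Arid5a* lay below every endothelial library. *Chd7* was 12.5, 7.1, 18 and 9.88 CPM in D2 neurons, lower than the mean of the other types but overlapping with D1 neurons and interneurons (log2 FC -1.70 ± 0.17 (SE), edgeR FDR = 2.22e-13). *Chd3os* was 516, 578, 494 and 529 CPM in D1 neurons (log2 FC 2.12 ± 0.10 (SE), edgeR FDR = 1.39e-26) and 518, 564, 424 and 456 CPM in D2 neurons (log2 FC 2.08 ± 0.10 (SE), edgeR FDR = 8.19e-26).

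Between D1 and D2 neurons 0 of 30 members were called by edgeR, where 2.88% of all genes were. At an unadjusted p under 0.05 edgeR gave 2 members, where 12.8% of all genes passed, and DESeq2 called 0. The largest difference in size was 0.35 on the log2 scale, and the smallest edgeR FDR was 0.175.

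Set against the mean of D1 and D2 neurons directly, the NB group had 10 members higher and 7 lower of 30 (10 and 6 without *Chd3os*), where 55.8% (25% higher, 30.8% lower) of all genes were called, and the members' median was 0.30 against -0.16 over all genes. *Chd7* was higher in every NB library than in any D1 or D2 library, where it was 15.6, 12.8, 15 and 11.4 and 12.5, 7.1, 18 and 9.88 CPM (log2 FC 3.42 ± 0.19 (SE), edgeR FDR = 4.69e-23). *Smarce1* likewise did not overlap, at 70.0, 57.3, 60.4 and 46.6 CPM in D1 neurons and 76.8, 62.6, 60.9 and 49.4 CPM in D2 neurons (log2 FC 2.00 ± 0.13 (SE), edgeR FDR = 1.03e-20). *Smarca1* was 3.39, 5.87, 13.4 and 16.3 CPM in NB, below every D1 and D2 library (log2 FC -2.44 ± 0.37 (SE), edgeR FDR = 9.44e-08). Also higher in NB were *Smarcc1*, *Arid2*, *Smarcad1*, *Smarca5*, *Smarca4*, *Arid1a*, *Chd2* and *Chd4*, between 0.65 and 1.67 on the log2 scale. Lower were *Chd5*, *Chd3os*, *Smarcd3*, *Arid4a*, *Smarca2* and *Chd3*, between -0.74 and -1.84.

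**Figure D4:**
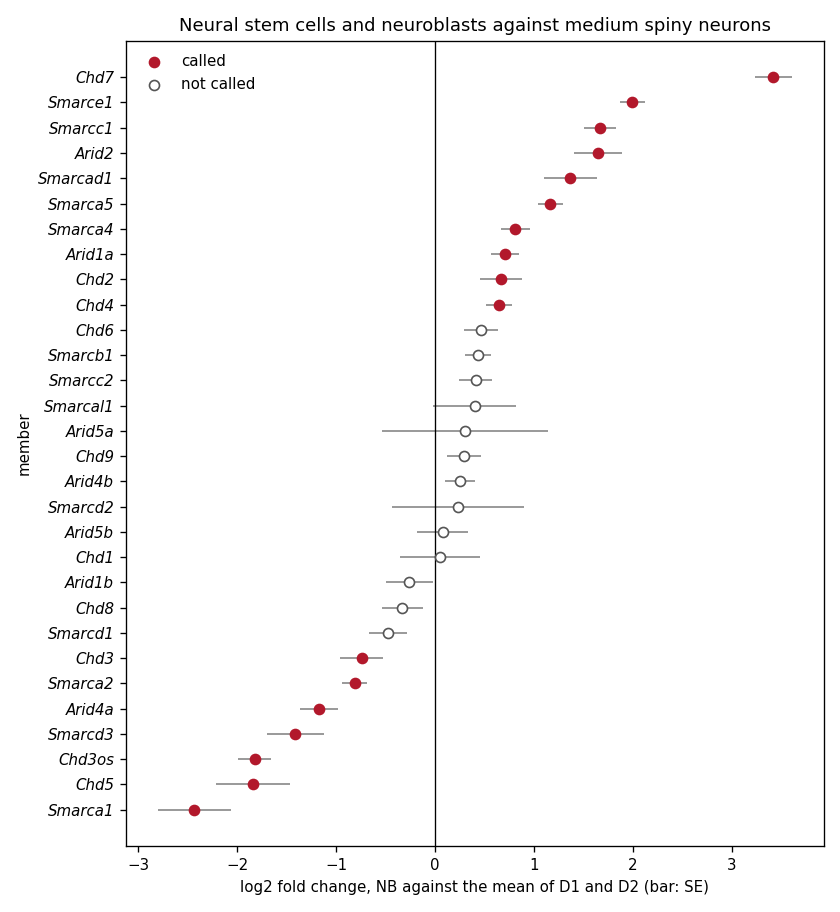
Each point is the log2 fold change of 1 of the 30 tested members in striatal NB against the mean of D1 and D2 medium spiny neurons (horizontal axis, bar: SE), ordered by size, filled where called. *Chd7* at 3.42 and *Smarca1* at -2.44 lie at the ends, the SWI/SNF ATPase *Smarca4* lies to the right (0.81) and *Smarca2* to the left (-0.81).

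Genes of the same complexes outside the member list were counted in the same contrast. Of 18 SWI/SNF partners tested, 9 were higher in NB and 7 lower, beside 55.8% (25% higher, 30.8% lower) of all genes. The higher ones included *Actl6a* (log2 FC 2.51 ± 0.15 (SE), edgeR FDR = 1.79e-21) and *Ss18* (log2 FC 3.25 ± 0.21 (SE), edgeR FDR = 1.48e-20). The lower ones included their neuronal relatives *Actl6b* (log2 FC -2.50 ± 0.24 (SE), edgeR FDR = 1.4e-13) and *Ss18l1* (log2 FC -1.95 ± 0.57 (SE), edgeR FDR = 0.00251), as well as *Dpf1* (log2 FC -2.39 ± 0.35 (SE), edgeR FDR = 3.13e-08). *Phf10*, known as the progenitor counterpart of the Dpf genes, was lower in NB (log2 FC -1.07 ± 0.38 (SE), edgeR FDR = 0.0133). Of 11 NuRD partners 4 were higher and 1 lower, of 7 ISWI partners 5 were higher and 0 lower, of 5 other SNF2 family genes 2 were higher and 0 lower, and of 5 other ARID domain genes 0 were called. The partner of largest fold was *Hells*, a remodeler known for its role in DNA methylation (log2 FC 6.15 ± 0.26 (SE), edgeR FDR = 1.27e-26).

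The same partners were set beside PFC excitatory neurons, where 7 of 15 SWI/SNF partners were higher and 4 lower, beside 56.4% (34.3% higher, 22.1% lower) of all genes. *Actl6b* was higher (log2 FC 4.15 ± 0.17 (SE), edgeR FDR = 3.85e-26) and *Actl6a* lower (log2 FC -1.44 ± 0.11 (SE), edgeR FDR = 7.35e-16), and *Ss18l1* was higher (log2 FC 1.56 ± 0.17 (SE), edgeR FDR = 1.03e-11) and *Ss18* lower (log2 FC -2.38 ± 0.18 (SE), edgeR FDR = 2.85e-16). NuRD partners had 2 higher and 3 lower of 11. In endothelial cells ISWI partners were higher in 4 of 5 tested in the PFC and 5 of 7 in the striatum, and NuRD partners in 6 of 11 and 5 of 11, with none lower. Of all genes 55.4% (29.5% higher, 26% lower) were called in PFC and 50.2% (29.8% higher, 20.4% lower) in striatal endothelial cells.

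Striatal interneurons had 5 members higher and 4 lower, against 42.8% (25.4% higher, 17.3% lower) of all genes called, with a median of -0.16 against 0.00 over all genes. *Chd5* was 105, 93.8, 117 and 99 CPM (log2 FC 2.92 ± 0.14 (SE), edgeR FDR = 9.6e-26), and *Chd3* 109, 99.5, 117 and 70.7 CPM (log2 FC 1.29 ± 0.13 (SE), edgeR FDR = 2.24e-12). *Chd7* was 9.85, 12.3, 11.1 and 13.2 CPM, also below the mean of the other types and overlapping with D1 and D2 neurons (log2 FC -1.78 ± 0.20 (SE), edgeR FDR = 3.58e-11). *Chd3os* was 703, 744, 719 and 825 CPM (log2 FC 2.59 ± 0.10 (SE), edgeR FDR = 1.7e-30). As in the PFC, these interneurons were high in *Chd5* and low in *Chd7*.

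Striatal endothelial cells had 6 members higher and 7 lower, against 50.2% (29.8% higher, 20.4% lower), with a median of 0.04 against 0.05 over all genes. *Arid5a* was 59.8, 84.2, 92 and 58.3 CPM (log2 FC 3.47 ± 0.17 (SE), edgeR FDR = 1.28e-25). *Arid5b* was 198, 151, 217 and 157 CPM (log2 FC 2.38 ± 0.10 (SE), edgeR FDR = 7.21e-30). *Smarcd2*, a SWI/SNF subunit known for its part in granulocyte development, was 19.3, 16.4, 27 and 16.4 CPM, while it was 4.41, 3.93, 2.5 and 2.94 CPM in D1 neurons (log2 FC 2.50 ± 0.23 (SE), edgeR FDR = 2.76e-14). It was called in 1 of the 10 striatal types and was not tested in the PFC. The count filter needs only as many libraries as the smallest type has, so a gene can pass it through 1 type. Whether *Smarcd2* passed through endothelial cells alone was not checked. *Chd3os* was 48.9, 61.2, 29.2 and 92.9 CPM (log2 FC -1.41 ± 0.15 (SE), edgeR FDR = 2.73e-12). These 3 Arid and Smarcd genes were high in every endothelial library. *Chd1*, a remodeler of active genes, was higher in endothelial cells of the PFC (log2 FC 1.82 ± 0.18 (SE), edgeR FDR = 2.23e-12) and of the striatum (log2 FC 1.37 ± 0.17 (SE), edgeR FDR = 6.51e-10). *Arid2*, the subunit that defines the PBAF form of SWI/SNF, was likewise higher in both (log2 FC 1.01 ± 0.15 (SE), edgeR FDR = 8.84e-08, and log2 FC 0.88 ± 0.14 (SE), edgeR FDR = 3.95e-07).

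Striatal astrocytes had 1 member higher and 10 lower, against 38.1% (24.1% higher, 14% lower), with a median of -0.27 against 0.00 over all genes. *Arid5a* was the higher one, at 36.1, 18.3, 39.4 and 0 CPM (log2 FC 2.05 ± 0.32 (SE), edgeR FDR = 1.89e-07). *Smarca1* was 5.15, 14.3, 3.38 and 10.6 CPM (log2 FC -1.55 ± 0.40 (SE), edgeR FDR = 0.000933), a call that was lost without striatal *Setd1a*+/- 1 (log2 FC -1.03, edgeR FDR = 0.0843). The other 9 lower members changed less, *Chd3os* the least (-0.65). *Smarcd1* was 24, 16.3, 15.8 and 10.6 CPM (log2 FC -1.24 ± 0.22 (SE), edgeR FDR = 5.98e-06), and *Smarce1* 42.9, 18.3, 38.3 and 31.9 CPM (log2 FC -1.22 ± 0.17 (SE), edgeR FDR = 2.8e-08). *Setd1a*+/- 2 held 31 astrocytes, against 214 to 354 in the other libraries.

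Striatal microglia had 4 members higher and 1 lower, against 19.7% (16.9% higher, 2.76% lower), with a median of 0.06 against 0.13 over all genes. *Arid5a* was 21, 17.2, 26.8 and 44.8 CPM (log2 FC 1.67 ± 0.53 (SE), edgeR FDR = 0.0153), and was not called at 30 cells or more a library (log2 FC 1.44, edgeR FDR = 0.0644). *Chd2* was 79.8, 73, 71.4 and 29.9 CPM (log2 FC 0.89 ± 0.25 (SE), edgeR FDR = 0.00668), and the call was lost without WT 1 (log2 FC 0.86, edgeR FDR = 0.0602) or WT 2 (log2 FC 0.78, edgeR FDR = 0.0844). *Arid5b* was 63, 64.4, 84.8 and 74.7 CPM (log2 FC 0.88 ± 0.25 (SE), edgeR FDR = 0.00512), and was not called with no library block (log2 FC 0.89, edgeR FDR = 0.0521). *Chd3os* was 176, 283, 156 and 329 CPM (log2 FC 0.92 ± 0.17 (SE), edgeR FDR = 2.22e-05). All 6 medium spiny neuron markers had UMIs in these microglia, with a summed level of 1388 to 1987 CPM against 4193 to 5176 CPM in D1 neurons and 81.95 to 796.4 CPM in the other types outside D1 and D2. Vascular markers were also found in striatal microglia. The mural markers summed to 179 to 442 CPM, and *Cldn5*, *Flt1* and *Ly6c1* had means of 218, 136 and 321 CPM, against 2308, 1661 and 3822 CPM in endothelial cells. Their part in these values was not tested.

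Striatal cells of the oligodendrocyte lineage had more members lower than higher at each stage. In progenitors 3 members were higher and 7 lower, against 33.6% (20.7% higher, 12.9% lower). In newly formed oligodendrocytes it was 2 and 5, against 19.7% (9.88% higher, 9.82% lower), and in oligodendrocytes 4 and 7, against 46.1% (23% higher, 23.2% lower), with medians of -0.21, -0.27 and -0.16 against 0.01, -0.29 and -0.12 over all genes. *Chd7* was 69.7, 57, 79.7 and 92.5 CPM in progenitors (log2 FC 1.02 ± 0.15 (SE), edgeR FDR = 1.44e-07), and *Smarca1* 55.8, 48.2, 48.8 and 18.5 CPM (log2 FC 1.24 ± 0.21 (SE), edgeR FDR = 1.75e-06). *Chd3* (log2 FC -1.53 ± 0.26 (SE), edgeR FDR = 1.21e-06) was lower in progenitors, as was *Chd3os* at 52, 67.2, 43.7 and 67.8 CPM (log2 FC -1.60 ± 0.17 (SE), edgeR FDR = 1.88e-11).

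In newly formed oligodendrocytes of the striatum, *Arid5b*, on 4 UMIs (log2 FC -2.99 ± 0.51 (SE), edgeR FDR = 5.4e-06) and *Smarca2*, at 56.8, 116, 43.7 and 68.8 CPM (log2 FC -1.32 ± 0.23 (SE), edgeR FDR = 6.12e-06), were lower, and so was *Chd3os* at 62.5, 106, 21.9 and 0 CPM (log2 FC -1.73 ± 0.29 (SE), edgeR FDR = 2.94e-06). *Smarcd3*, with 3 UMIs, was 4.74 times lower than the mean of the other types, with a counting interval of 1.62 to 22.99. Its call was lost without WT 1 or *Setd1a*+/- 1 and with library size alone (log2 FC -1.55 to -1.97, edgeR FDR 0.0511 to 0.198). In striatal oligodendrocytes *Arid5b* was higher (log2 FC 2.59 ± 0.10 (SE), edgeR FDR = 8.15e-31) and *Chd3* lower (log2 FC -2.64 ± 0.26 (SE), edgeR FDR = 4.47e-13). *Chd5* was 2.13, 1.69, 3 and 6.29 CPM (log2 FC -2.26 ± 0.38 (SE), edgeR FDR = 7.36e-07), and *Chd3os* 21.3, 23.7, 14.1 and 56.7 CPM (log2 FC -2.39 ± 0.18 (SE), edgeR FDR = 2.69e-17). *Setd1a*+/- 2 held 67 oligodendrocytes, and its *Arid5b* level was the lowest of the 4.

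Within PFC excitatory neurons, 26 members were tested across 7 layer subtypes (DL, deep layer, SL, superficial layer, each labelled with a gene), each against the mean of the others, and 10 of 182 tests were called, 5 higher and 5 lower, or 9 without *Chd3os*. Of all genes 3.77% to 24.4% were called in a subtype. DL-Pou3f1 had 10 or more cells in 2 libraries only. DL-Etv1, DL-Nnat and DL-Pou3f1 had no member called, where 8.83%, 6.96% and 3.77% of all genes were. In the others the share of all genes called was 13.5% in DL-Foxp2, 24.4% in DL-Tshz2, 10.9% in SL-Cux2 and 13.6% in SL-Myh7. *Chd3* was 90.4, 153, 69.1 and 162 CPM in DL-Foxp2 neurons (log2 FC 1.02 ± 0.10 (SE), edgeR FDR = 1.28e-14) and 41.8, 62.8, 28.6 and 42.1 CPM in SL-Cux2 neurons (log2 FC -0.60 ± 0.13 (SE), edgeR FDR = 0.000132). In both, replicate 2 lay above replicate 1 in each genotype. The SL-Cux2 call lay close to the fold threshold. It was lost without *Setd1a*+/- 2, with no library block, with no count filter and without the top 5% of cells by UMIs (log2 FC -0.51 to -0.61, edgeR FDR 0.000626 to 0.208).

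*Smarca2* was highest in SL-Myh7 neurons, at 569, 424, 398 and 417 CPM (log2 FC 1.10 ± 0.10 (SE), edgeR FDR = 8.05e-17), while it was 248, 225, 229.7 and 242 CPM over all excitatory neurons. *Chd5* was 82.8, 62.4, 12.3 and 44.4 CPM in SL-Myh7 neurons (log2 FC -1.05 ± 0.18 (SE), edgeR FDR = 3.86e-06), and was not called with no library block (log2 FC -0.95, edgeR FDR = 0.0686). *Arid5b* was 104, 112, 111 and 92.8 CPM there (log2 FC 0.73 ± 0.15 (SE), edgeR FDR = 8.97e-05) and 43.8, 42.5, 51.6 and 25.7 CPM in DL-Foxp2 neurons (log2 FC -0.74 ± 0.13 (SE), edgeR FDR = 1.99e-06). The SL-Myh7 call for *Arid5b* fell under the fold threshold without PFC WT 2 (log2 FC 0.56, edgeR FDR = 0.0175). *Chd2* was 36.2, 28.1, 21.6 and 19.3 CPM in SL-Myh7 neurons (log2 FC -0.70 ± 0.25 (SE), edgeR FDR = 0.0361). Its call was lost without PFC WT 1, WT 2 or *Setd1a*+/- 2 (log2 FC -0.49 to -0.66, edgeR FDR 0.102 to 0.496), and under 4 other settings with an FDR of 0.0553 to 0.209.

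In DL-Tshz2 neurons *Chd6* was 135, 54.2, 104 and 99.1 CPM (log2 FC 0.73 ± 0.15 (SE), edgeR FDR = 6.8e-05), and *Chd3os* 979, 926, 1192 and 1004 CPM (log2 FC 0.77 ± 0.07 (SE), edgeR FDR = 2.97e-17). *Arid1b*, a SWI/SNF subunit mutated in Coffin-Siris syndrome, was 22.1, 34.2, 23.1 and 26.4 CPM (log2 FC -0.67 ± 0.25 (SE), edgeR FDR = 0.031). That call was lost without PFC WT 1 or *Setd1a*+/- 1, at 30 cells or more and without the top 5% of cells by UMIs (log2 FC -0.37 to -0.62, edgeR FDR 0.0615 to 0.427). With DESeq2 its DESeq2 FDR was 0.0504. *Arid3c*, with 27 UMIs in all, was too sparse to test, and 12 of its 14 PFC UMIs were in DL-Tshz2 neurons, at 8.82, 5.7, 6.93 and 19.8 CPM.

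Several members were sparse. *Arid3a* and *Arid3b*, transcription factors of the Bright family, had 297 and 419 UMIs, *Chd1l*, a remodeler that responds to DNA damage, had 468, *Smarcd2* had 439 and *Smarcal1* 700. *Smarcad1*, a single-chain remodeler known from DNA repair and heterochromatin, was higher in NB (log2 FC 1.21 ± 0.26 (SE), edgeR FDR = 0.0001) and, in the PFC, in progenitors (log2 FC 0.63 ± 0.20 (SE), edgeR FDR = 0.00852). *Smarca4*, known as BRG1, was higher in NB (log2 FC 1.10 ± 0.15 (SE), edgeR FDR = 8.81e-09) and in PFC newly formed oligodendrocytes (log2 FC 0.61 ± 0.17 (SE), edgeR FDR = 0.00513). It was lower in astrocytes of both tissues (log2 FC -1.15 ± 0.23 (SE), edgeR FDR = 6.76e-05, and log2 FC -0.73 ± 0.18 (SE), edgeR FDR = 0.000449). *Arid1a*, the subunit that takes the place of *Arid1b* in some SWI/SNF complexes, was lower in progenitors of both tissues (log2 FC -0.83 ± 0.15 (SE), edgeR FDR = 5.62e-06, and log2 FC -1.02 ± 0.14 (SE), edgeR FDR = 1.45e-08). *Chd9*, a relative of *Chd7*, was higher in PFC astrocytes (log2 FC 0.94 ± 0.15 (SE), edgeR FDR = 1.3e-06) and microglia (log2 FC 0.83 ± 0.17 (SE), edgeR FDR = 9.45e-05). *Arid4a*, a relative of *Arid4b*, was higher in excitatory neurons (log2 FC 0.63 ± 0.09 (SE), edgeR FDR = 7.47e-09) and in D1 neurons (log2 FC 1.02 ± 0.09 (SE), edgeR FDR = 6.12e-15). *Chd8*, an autism risk gene, was called once, lower in striatal progenitors (log2 FC -0.60 ± 0.17 (SE), edgeR FDR = 0.00347).

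For the 7 types found in both tissues, PFC was compared with striatum with the genotype as a covariate. The tissues were dissociated as separate samples, so tissue and preparation cannot be told apart. Of 149 tests, 7 were called (3 without *Chd3os*), where the share of all genes called was 11.6% in interneurons, 10.4% in astrocytes, 6.06% in endothelial cells, 21.1% in microglia, 0.0663% in newly formed oligodendrocytes, 0.158% in progenitors and 2.7% in oligodendrocytes. By edgeR, 0 of 12 members were called in newly formed oligodendrocytes, 0 of 25 in progenitors and 0 of 23 in oligodendrocytes, and DESeq2 called 0 in each of these, while 1 member, *Smarcd3*, was called in progenitors with the replicate number as a block. At an unadjusted p under 0.05 edgeR gave 0, 7 and 0 of them, where 9.42%, 13.9% and 17.1% of all genes passed.

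*Arid5a* was higher in PFC interneurons, at 31.4, 39.8, 48.8 and 19.9 CPM, than in striatal interneurons, at 6.06, 1.65, 11.1 and 6.6 CPM (log2 FC 2.54 ± 0.41 (SE), edgeR FDR = 0.000561), and the libraries of the tissues did not overlap. In empty droplets *Arid5a* was 8.31 to 15.1 CPM in the PFC and 5.85 to 19 CPM in the striatum. *Arid4a* was 128, 47.7, 76.9 and 89.5 CPM in PFC astrocytes and 46.4, 30.6, 46.2 and 42.5 CPM in striatal astrocytes (log2 FC 1.14 ± 0.31 (SE), edgeR FDR = 0.0279). The call was lost without PFC WT 1, PFC *Setd1a*+/- 2, striatal WT 1, striatal WT 2 or striatal *Setd1a*+/- 1 and without the top 5% of cells by UMIs (edgeR FDR 0.0597 to 0.182). Without PFC WT 1 the log2 FC fell to 0.74, and in the other 5 settings it was 1.00 to 1.24. *Smarca2* was 74.5, 70.3, 50.6 and 14.6 CPM in PFC microglia and 155, 129, 103 and 269 CPM in striatal microglia (log2 FC -1.39 ± 0.42 (SE), edgeR FDR = 0.0352). This call was lost without PFC *Setd1a*+/- 1, PFC *Setd1a*+/- 2, striatal WT 1 or striatal WT 2 and without the top 5% of cells by UMIs (edgeR FDR 0.0537 to 0.0874). Without PFC *Setd1a*+/- 2 the log2 FC was -1.02, and in the other 4 settings -1.34 to -1.65. *Smarca2* was 117 to 142 CPM in PFC empty droplets and 130.0 to 167 CPM in striatal ones. The striatal microglia are those with medium spiny neuron markers.

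*Smarcd3* was called between the tissues only under some settings. It was 1, 6.63, 0 and 4.82 CPM in PFC and 12.7, 9.21, 8.82 and 27.3 CPM in striatal endothelial cells, with no overlap (log2 FC -2.56 ± 0.72 (SE), edgeR FDR = 0.0553). With the replicate number as a block it was called (log2 FC -2.49, edgeR FDR = 0.0272), where 8.19% of all genes were. It was also called by DESeq2 (log2 FC -2.50, DESeq2 FDR = 0.0209), with no count filter, without the top 5% of cells by UMIs and without PFC WT 2 or PFC *Setd1a*+/- 2 (log2 FC -2.53 to -3.49, edgeR FDR 2.22e-05 to 0.0496). In progenitors it was 4.5, 14.3, 1.97 and 10.7 CPM in the PFC and 25.4, 32.1, 24.4 and 37 CPM in the striatum, and the tissues did not overlap (log2 FC -1.79 ± 0.42 (SE), edgeR FDR = 0.105). There it was called with the replicate block (log2 FC -1.90, edgeR FDR = 0.0337), where 1.31% of all genes were, without PFC WT 2 (log2 FC -2.43, edgeR FDR = 0.0265) and with no count filter (log2 FC -1.83, edgeR FDR = 0.000491). Empty droplets held 2.46 to 37.2 CPM of *Smarcd3* in the PFC and 107 to 127 CPM in the striatum, also lower in the PFC, and their part in these values was not tested. With no count filter or with 1 library left out, further calls came from *Chd3*, *Chd4*, *Chd7*, *Chd9*, *Smarca1*, *Smarcd1* and *Smarcd3*.

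*Chd3os* gave the other 4 calls. It was lower in PFC than in striatal astrocytes, where it was 67, 97.8, 63.1 and 159 CPM (log2 FC -2.26 ± 0.47 (SE), edgeR FDR = 0.00543), and likewise lower in endothelial cells (log2 FC -1.63 ± 0.37 (SE), edgeR FDR = 0.0232) and in microglia (log2 FC -2.47 ± 0.51 (SE), edgeR FDR = 0.00669). It was higher in PFC interneurons (log2 FC 0.71 ± 0.15 (SE), edgeR FDR = 0.00421). Its levels in PFC microglia were 28.4, 86.5, 0 and 34.1 CPM. Empty droplets held 307 to 380.0 CPM of *Chd3os* in the PFC and 235 to 319 CPM in the striatum, so the levels in these glial and vascular cells lay below that of the free RNA, or around it in striatal microglia. The endothelial call was lost without PFC WT 1, PFC *Setd1a*+/- 1, striatal WT 1 or striatal WT 2 (log2 FC -1.38 to -1.67, edgeR FDR 0.0553 to 0.14). Without the top 5% of cells by UMIs the endothelial call (log2 FC -1.20, edgeR FDR = 0.0941) was lost. So was the astrocyte call (log2 FC -1.72, edgeR FDR = 0.133).

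Between genotypes no member was called in any of the 8 PFC types, the 10 striatal types or the 6 excitatory subtypes tested. DL-Pou3f1 had 10 or more cells in 1 library of each genotype only and was not tested. Of all genes 0% were called in each PFC type and tested subtype, and 0.0397% (4 genes) in striatal D2 neurons and 0% in the other striatal types, with a threshold of 1.5-fold in the PFC and 2-fold in the striatum. In the PFC, 174 pairs of member and type were tested with 2 libraries per genotype, and edgeR gave 6 at an unadjusted p under 0.05 (over all genes 1.71%) and DESeq2 3 (over all genes 0.291%). In the striatum there were 242 pairs, with 4 by edgeR (over all genes 2.61%) and 0 by DESeq2 (0.495%). In the PFC subtypes there were 147 pairs, with 0 by each (over all genes 1.6% by edgeR and 0.194% by DESeq2). Blocking on replicate in edgeR gave 16 of the 174 PFC pairs at that p (over all genes 4.78%), 9 of the 242 striatal pairs (5.17%) and 8 of the 147 subtype pairs (4.39%). No member was called with this block, where 0.0645%, 0.113% and 0.0268% of all tests were. The smallest edgeR FDR of a member with the block was 0.101 in the PFC, 0.508 in the striatum and 0.894 in the subtypes. In PFC endothelial cells 6 of 28 members had an unadjusted p under 0.05 with the block, where 546 of all 8777 genes did. The median SE of a log2 difference was 0.34 in the PFC, 0.31 in the striatum and 0.32 in the subtypes, so differences within that error were not detectable. Differences well above that error also went uncalled, such as *Chd3* in PFC interneurons (log2 FC -1.65 ± 0.41 (SE)). The lack of calls therefore does not exclude differences of that size.

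**Figure D5:**
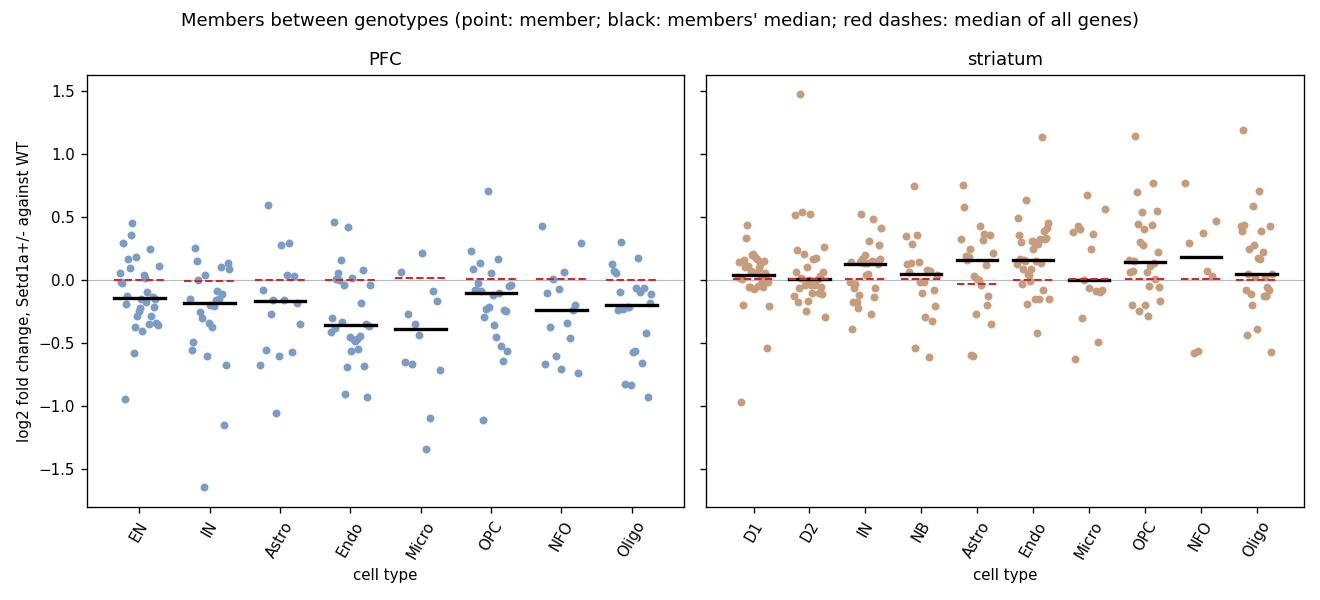
Each point is the log2 fold change of 1 tested member between *Setd1a*+/- and WT cells of 1 type (PFC on the left, striatum on the right), with a black bar at the members' median and red dashes at the median of all genes. No point is a call, the black bars lie below the red dashes in all 8 PFC types (-0.11 to -0.40) and between 0.00 and 0.18 in the striatum, where the bars of 6 of the 10 types fell below 0 with some library left out.

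The members' differences were more often below than above 0 in the PFC. Of the 174 pairs 128 (73.56%) were lower in *Setd1a*+/-, and the medians were -0.14 in excitatory neurons, -0.18 in interneurons, -0.17 in astrocytes, -0.36 in endothelial cells, -0.40 in microglia, -0.24 in newly formed oligodendrocytes, -0.11 in progenitors and -0.20 in oligodendrocytes, where the medians over all genes lay between -0.01 and 0.02. Over all PFC cells 26 of 33 members were lower, with a median of -0.17. That median was -0.06 without *Setd1a*+/- 1, -0.27 without *Setd1a*+/- 2, -0.14 without WT 1 and -0.22 without WT 2, with 22 to 24 members lower. With each of the 4 libraries left out in turn, the median was -0.31 to -0.33 in endothelial cells, and the other types moved by more than 1.5 times without at least 1 library. In excitatory neurons it was 0.00 without *Setd1a*+/- 1, -0.03 without WT 1 and -0.07 without WT 2. In interneurons it was -0.12 without WT 1. In astrocytes it was -0.03 without *Setd1a*+/- 1 and -0.52 without *Setd1a*+/- 2. In microglia it was -0.63 without *Setd1a*+/- 1. In newly formed oligodendrocytes it was -0.09 without *Setd1a*+/- 1 and -0.39 without *Setd1a*+/- 2. In progenitors it was -0.04 without *Setd1a*+/- 1, -0.07 without WT 1, -0.30 without WT 2 and -0.31 without *Setd1a*+/- 2. In oligodendrocytes it was -0.13 without WT 2. In the striatum 88 of 242 pairs (36.36%) were lower, and over all cells 7 of 33, with a median of 0.08. That count was 15 without striatal WT 2, 15 without *Setd1a*+/- 1 (median 0.01), 13 without *Setd1a*+/- 2 and 12 with library size alone. By type, the striatal median turned below 0 with 1 library left out in D1 neurons (-0.02 without WT 2, -0.03 without *Setd1a*+/- 1), D2 neurons (-0.09 and -0.02), interneurons (-0.01 without *Setd1a*+/- 1) and NB (-0.18 without *Setd1a*+/- 1). In newly formed oligodendrocytes it was 0.39 without WT 1, -0.17 without WT 2, -0.29 without *Setd1a*+/- 1 and -0.23 without *Setd1a*+/- 2. In microglia it went from 0.00 to 0.39 without *Setd1a*+/- 1, 0.28 without WT 2 and -0.24 without *Setd1a*+/- 2. In the other 4 types it stayed between 0.01 and 0.29. The types of a tissue share their libraries and are not independent.

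With no block, the smallest unadjusted p in the PFC was that of *Chd3* in interneurons, at 85.7, 95.6, 19.97 and 39.7 CPM (log2 FC -1.65 ± 0.41 (SE), edgeR unadjusted p = 0.00388, FDR = 1.00). The genotypes did not overlap in this pair, picked by its p from 174, and the share of such pairs over all genes was not counted. Empty droplets of these libraries held 48.3, 81.7, 27.5 and 75 CPM of *Chd3*, also lower in *Setd1a*+/- within each replicate number. Both *Setd1a*+/- libraries of interneurons lay below that level and both WT libraries above it. The part of free RNA in this difference was not tested. *Chd3* in PFC endothelial cells was 38.1, 30.5, 11.3 and 38.6 CPM (log2 FC -0.69 ± 0.55 (SE), edgeR unadjusted p = 0.241, FDR = 1.00), and the genotypes overlapped: *Setd1a*+/- 1 was low and *Setd1a*+/- 2 was the highest of the 4. Without *Setd1a*+/- 1 the difference turned to 0.24. In the striatum the smallest p was that of *Arid2* in oligodendrocytes, at 9.03, 7.62, 18 and 25.2 CPM (log2 FC 1.19 ± 0.42 (SE), edgeR unadjusted p = 0.0127, FDR = 1.00). *Setd1a*+/- 2 held 67 oligodendrocytes, where 1 UMI stood for 6.29 CPM, so its *Arid2* value rests on few UMIs. In the excitatory subtypes the smallest p was that of *Chd9* in SL-Cux2 neurons, at 125, 81.4, 65.4 and 64.3 CPM (log2 FC -0.62 ± 0.28 (SE), edgeR unadjusted p = 0.0538, FDR = 1.00). *Smarca4* in NB, at 210.4, 147, 185 and 48.9 CPM, was called only without striatal *Setd1a*+/- 1 (log2 fold change -1.85 ± 0.47 (SE), edgeR FDR = 0.0245), when *Setd1a*+/- 2 with 55 cells stood alone.

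Some members differed more between replicate numbers than between genotypes. Over all PFC cells *Smarcd3* was 3.87, 20.4, 2.43 and 17.8 CPM, and *Chd3* 42, 80.0, 32 and 56.5 CPM. *Chd5* was 39.7, 80.6, 34.8 and 75 CPM. In each, replicate 2 lay above replicate 1 in both genotypes, and for 3 of 33 PFC members with 100 or more UMIs it did so by more than 1.5 times in both. In the striatum 0 of 33 such members did so, and 1 was lower in replicate 2 by that factor in both genotypes. The share over all genes was not counted. The empty droplets of the PFC held *Smarcd3*, *Chd3* and *Chd5* likewise, with replicate 2 above replicate 1 in both genotypes. Excitatory neurons made up 410 of 2623, 1189 of 2680, 692 of 2186 and 484 of 1508 annotated cells in these libraries, and the part of this in the values was not tested. In a test of whether the genotype difference differed between tissues, 0 of 167 pairs passed an FDR of 0.05 by edgeR, with 10 at an unadjusted p under 0.05 (over all genes 2.21%), and DESeq2 called 0, with 2 (over all genes 0.487%).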

How the data were processed

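Single-cell RNA was measured with 10x Genomics Chromium in 8 libraries, 2 per genotype and tissue, and samples were grouped by the labels. The authors made the deposited UMI counts per gene and droplet with Cell Ranger 3.0.2 (mm10) and clustered and named the cells with Seurat 3.2.0. Their annotation of cells was used as deposited, and its cells had at least 800 detected genes and under 10% mitochondrial UMIs. Their table of normalized expression was not used here. The methods give an older age than the labels.

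UMIs were summed by library and annotated cell type, leaving out a type with fewer than 10 cells in a library, and tested with the quasi-likelihood test of edgeR 4.0.16 (R 4.3.3, limma 3.58.1; TMM scaling, filterByExpr at a count of 10, Benjamini-Hochberg FDR over all genes of a contrast). Calls needed an FDR under 0.05 and a 1.5-fold change, or 2-fold between striatal genotypes. Types were compared with the library as a block, genotypes with no block. Between genotypes and between tissues, SE and p measure the spread between libraries, each of 2 pooled mice (2 per genotype, up to 4 per tissue). Between types of a tissue the level of each library was fitted out. There SE and p measure the spread that remained, pooled over the types, with up to 4 libraries per type. Counting intervals and limits cover counting error only. No doublet caller was run. The scripts were tested on simulated data.

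By the methods, each biological replicate held a WT and a *Setd1a*+/- library, so replicate numbers pair the libraries. Deviations of same-numbered libraries from their group means correlated across genes with a mean of 20 CPM or more at 0.556 in the PFC and 0.754 in the striatum over all cells (0.092 to 0.721 and 0.0411 to 0.547 by type). Those genes are not independent and share the library.

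All members were named. Library values were given for up to 4 called members of largest fold per cell type, up to 3 per other contrast, the smallest p between genotypes and *Chd3* in PFC endothelial cells. Some further members were described after their values were seen. The members, gene lists and tests were chosen with earlier results of these data known. Alternatives were other scalings, DESeq2 1.42.0, no count filter, 30 cells, no mitochondrial and ribosomal protein genes, no 5% of cells with the most UMIs, the block added or removed, FDR alone, each library left out, and, chosen after seeing the data, no *Chd3os*.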

Additional observations from a re-analysis of the deposited data

How the results depend on the processing

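Calls between cell types varied little. Leaving out 1 library at a time gave 83 to 89 calls in PFC types (91 with all), 95 to 110 in striatal types (102), 9 to 12 in subtypes (10), 15 to 18 for NB against medium spiny neurons (17), 20 to 25 along the lineage (23) and 0 to 0 between D1 and D2. An FDR alone gave 33 subtype calls. PFC against striatum was less stable: of 7 calls there were 19 with no count filter, 4 without the 5% of cells with the most UMIs, 3 without *Chd3os* and 4 to 12 with 1 library left out (12 without PFC WT 2, 4 without striatal WT 1 or striatal WT 2). The cause was not tested. Between genotypes leaving out 1 library gave 0 to 0 calls in PFC types and subtypes and in the tissue interaction, and 0 to 1 in the striatum (*Smarca4* in NB, without *Setd1a*+/- 1). The difference of *Chd3* in PFC endothelial cells ranged from -1.62 (without *Setd1a*+/- 2) to 0.24 (reversed, without PFC *Setd1a*+/- 1). Of named values with 1 library left out, 423 kept their side of the threshold, 34 lost it and 1 reversed. Under the other settings 0 reversed.

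With the replicate number as a block, calls between genotypes stayed at 0 in both tissues, in the subtypes and in the interaction, and PFC against striatum had 9. Without the library as a block, the counts were 89 in PFC types, 100 in striatal types, 7 in subtypes, 18 for NB and 21 along the lineage. These counts of member calls moved by less than 1.5 times, while pairs at an unadjusted p under 0.05 between genotypes rose with the block from 6 to 16 in the PFC, 4 to 9 in the striatum and 0 to 8 in the subtypes. Members with few UMIs, such as *Arid3c*, could not be tested at this depth.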
